A study of Sus scrofa with 16 samples.

Results

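Windows of 500 bp on pig chromosomes 1 to 18 were taken where peaks of DNA methylation went with elevation in the same direction in Tibetan and in Yorkshire pigs. A window entered the highland class where the middle of it (base 250) lay under 2 or more peaks of Tibetan highland pigs (TH) and 2 or more of Yorkshire highland pigs (YH), and under 0 peaks of Tibetan lowland (TL) and Yorkshire lowland pigs (YL). The lowland class was the mirror image, with 2 or more peaks in TL and in YL and 0 in TH and YH. Of 4898750 windows, 620135 had a peak in at least 1 group at base 250, and 954 of these fell in the highland class (0.154%) and 1105 in the lowland class (0.178%). The 2059 windows were thus chosen by the peak counts themselves, so these counts describe the classes and carry no test.

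Hearts were taken at 6 months of age from castrated boars, 4 in each of the 4 groups. TH and YH were raised at 3000 m, TL and YL at 100 m. TH and YL were kept where their breed is at home. The forebears of YH and TL had been brought to the other elevation some 3 years before, and 1 generation had been bred since, so these are recently moved stocks and not long-settled ones. Pigs at 1 elevation shared the place and the feeding, so elevation cannot be told apart from these. Heart DNA is a mixture of muscle, vessel, connective tissue and blood cells, and a change in the mixture cannot be told apart from a change within a cell type.

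In vertebrates a methyl group is added mostly to the cytosine of CpG pairs, and the mark is copied to the new strand when DNA is replicated. Dense methylation of a promoter goes with a silent gene in many tissues, while most of the bodies of genes and the DNA between them are methylated as a matter of course. In MeDIP-seq, sheared DNA is pulled down with an antibody against methylated cytosine and sequenced, and a peak is a stretch where reads pile up above the local background. The method reports a stretch far longer than 1 CpG and depends on how many CpGs the stretch holds, so the absence of a peak is not the absence of methylation.

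The deposited data were 1 list of peaks per group, and YL had the most peaks (332078), followed by YH (287224), TH (280678) and TL (259066). The reads (tags) inside peaks, the only depth the lists hold, came to 13.9 M in YL, 11.3 M in YH, 10.5 M in TH and 8.64 M in TL (M, 1000000 tags). No list had more than 4 peaks over the middle of any window, the number of animals in a group, and the lists were read as the joined peaks of the 4 animals. Under that reading a count of 2 means peaks in 2 of 4 animals, but no peak carries the name of its animal. The spread between animals at a window is therefore unknown beyond this count, and no value per animal can be given.

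Of the windows of both classes together, 46.3% were of the highland class (95% Wilson interval 44.2% to 48.5%, counting error only). This side of 50% changed with the peaks used. When equal numbers of peaks were taken from the 4 lists by fold enrichment (tags in the peak relative to the background that the peak caller estimated), the highland class had 1191 windows and the lowland class 715, and the highland share was 62.5%. Which class is the larger therefore cannot be read from these lists.

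Most members stood just inside the threshold. In the highland class 637 of 954 windows (66.8%) had exactly 2 TH and 2 YH peaks, and in the lowland class 692 of 1105 (62.6%) had exactly 2 TL and 2 YL peaks. Of the other windows with 2 or more TH and YH peaks, 18826 of 103252 had exactly 2 and 2. For TL and YL this was 15670 of 99750. Just outside it on the highland side, 2200 windows had 1 Tibetan and 2 or more Yorkshire peaks, 2693 had 2 or more Tibetan and 1 Yorkshire peak, both with 0 lowland peaks, and 3213 had 2 or more in both breeds but also a single lowland peak, which was a TL peak in 1065 and a YL peak in 2148. On the lowland side the same numbers were 3616, 2080 and 3521, the last made up of 1655 windows with 1 TH peak and 1866 with 1 YH peak. Each class was thus bordered by more windows that missed it by 1 peak than it held.

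Windows with 3 or more peaks in both breeds were few. There were 46 in the highland class (4.82% of it, and 0.00742% of windows with a peak) and 56 in the lowland class (5.07% of it, and 0.00903%). No window had the full pattern, with 4 peaks in both breeds at 1 elevation and 0 in both at the other. The nearest to it were 6 highland windows with 7 of 8 possible peaks and 14 lowland windows with 7. Most members had equal numbers of peaks from both breeds, with 677 highland windows (71.0%) and 734 lowland windows (66.4%). In the highland class 147 windows had more YH than TH peaks and 130 more TH than YH peaks, and in the lowland class 219 had more YL than TL peaks and 152 more TL than YL peaks. The breed ahead in both, Yorkshire, also had the longer list at each elevation, and the part of list length was not tested.

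**Figure D1:**
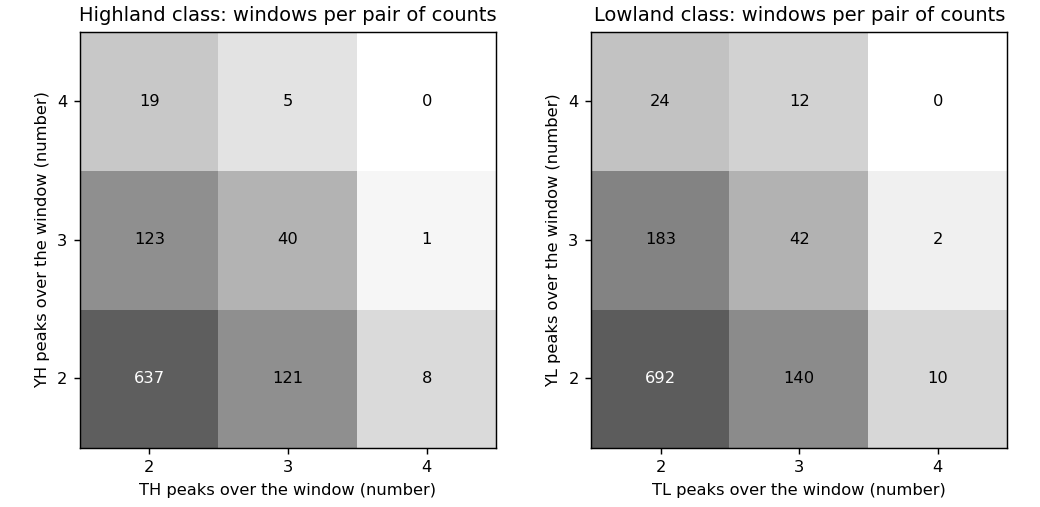
Number of member windows, printed in each field, by peaks in the Tibetan group (horizontal axis, TH or TL, 2 to 4 peaks) and in the Yorkshire group (vertical axis, YH or YL, 2 to 4 peaks), with the highland class on the left, the lowland class on the right and darker fields for more windows on a log scale. The corner with 2 peaks in each breed holds 637 of 954 and 692 of 1105 windows, and the opposite corner with 4 and 4 holds 0 in both.

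How far the breeds shared windows was first set against each breed on its own. In Tibetan pigs, 36209 windows had 2 or more TH peaks and 0 TL peaks (5.84% of windows with a peak), and in Yorkshire pigs 16196 had 2 or more YH and 0 YL peaks (2.61%). The 954 highland windows were 2.63% of the Tibetan and 5.89% of the Yorkshire set. The first of these shares, 2.63%, stood beside the 2.61% that the Yorkshire step took of all windows with a peak. In the lowland direction 19817 windows had 2 or more TL and 0 TH peaks (3.20%) and 35781 had 2 or more YL and 0 YH peaks (5.77%). The 1105 lowland windows were 5.58% of that Tibetan set and 3.09% of the Yorkshire set, and the 5.58% stood beside 5.77% of all windows with a peak. These shares come from the counts that define the classes, and a window with the Tibetan step is among the windows with a peak through that step itself, so they describe the sets and carry no test of sharing.

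These shares moved with the windows they were set against. Windows of every shared or opposite kind have at least 4 peaks by their definition, so a set limited to 4 or more peaks keeps all of them while the other counts shrink, and higher ratios in it say nothing about sharing. Over all windows, most of which have no peak, the ratio rises in the same way. Among windows with 4 or more peaks over the 4 lists, 4.50% of the TH set had the YH step against 2.86% of all such windows, a ratio of 1.57, and 9.32% of the TL set had the YL step against 6.60%, a ratio of 1.41. Over all windows, with or without a peak, the ratios were 7.97 and 7.63. The opposite steps were counted in the same way and under the same limits. Windows with 2 or more TH and YL peaks and 0 in TL and YH numbered 3026, and those with 2 or more TL and YH peaks and 0 in TH and YL numbered 856. Their ratios were 1.45 and 1.65 among windows with a peak, where those of the shared steps were 1.01 and 0.966, then 2.16 and 2.52 among windows with 4 or more peaks, and 11.4 and 13.1 over all windows.

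Among the pairs of groups that can share a window without the others, those of the same elevation were not the most frequent. YH and YL, the Yorkshire groups, had 6071 windows with 2 or more peaks in both and 0 in TH and TL, which is 4.70% of the 129119 windows with 2 or more in both. TH and YL, each at its home elevation, had 3026 (2.60% of 116235), and TH and TL, the Tibetan groups, 1548 (1.68% of 92383). The lowland pair TL and YL had 1105 (1.10% of 100855), the highland pair TH and YH 954 (0.915% of 104206), and the moved pair TL and YH 856 (0.900% of 95086). The lists with fewer peaks, TL and TH, had to be empty in the first of these pairs, and YL, the longest list, had to be empty in the highland class. The part of list length in this order was not tested.

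Joined where they touched, the members made 704 highland and 836 lowland regions. A single window made up 521 highland regions (74.0%) and 639 lowland regions (76.4%), 131 and 149 had 2 windows, and 52 and 48 had 3 or more. The longest highland regions reached 2500 bp and the longest lowland region 5000 bp. With windows up to 2000 bp apart joined, the longest highland region was 4000 bp and the longest lowland region still 5000 bp. Traced base by base, the stretch that kept the pattern of the class around a member had a median of 469 bp (quartiles 118 to 743) in the highland class and 481 bp (148 to 699) in the lowland class. It was under 100 bp in 157 of 705 highland stretches (22.3%) and 156 of 837 lowland stretches (18.6%), and 1000 bp or more in 88 (12.5%) and 75 (8.96%).

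The peaks over the members were peaks of ordinary strength in their lists. Fold enrichment had a median of 7.80 over 1541 TH peaks at highland members, against 7.99 at windows with 2 TH and 2 YH peaks that also had a lowland peak and 8.28 over all TH peaks on these chromosomes. For YH the medians were 6.73, 6.76 and 7.28, over 1568 peaks at members. At lowland members TL peaks had 7.58 (1834 peaks) against 7.27 and 7.87, and YL peaks 7.27 (1906 peaks) against 7.19 and 7.49. The range between the quartiles was wide next to these differences, from 6.08 to 9.98 for TH peaks at members and from 5.64 to 9.13 for YL peaks.

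At the median, peaks over members were smaller than those at windows with 2 peaks in each breed and a peak at the other elevation. Their median number of tags was 28 against 32 in TH, 31 against 34 in YH, 25 against 29 in TL and 30 against 35 in YL. Their median length was 1092 against 1142 bp in TH, 1118 against 1186 in YH, 994 against 1081 in TL and 1086 against 1209 in YL. Over all peaks the medians were 27, 29, 25 and 30 tags and 994, 1024, 943 and 1042 bp, so in 4 of 4 lists the lengths at members lay between the other sets. With the members held to those with 2 peaks in each breed, the median tags were 28, 30, 25 and 30 and the median lengths 1077, 1095, 1002 and 1109 bp, again below the windows with a peak at the other elevation. The counts of the rule and these measures come from the same peak calls, and tags and lengths were therefore not tested.

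**Figure D2:**
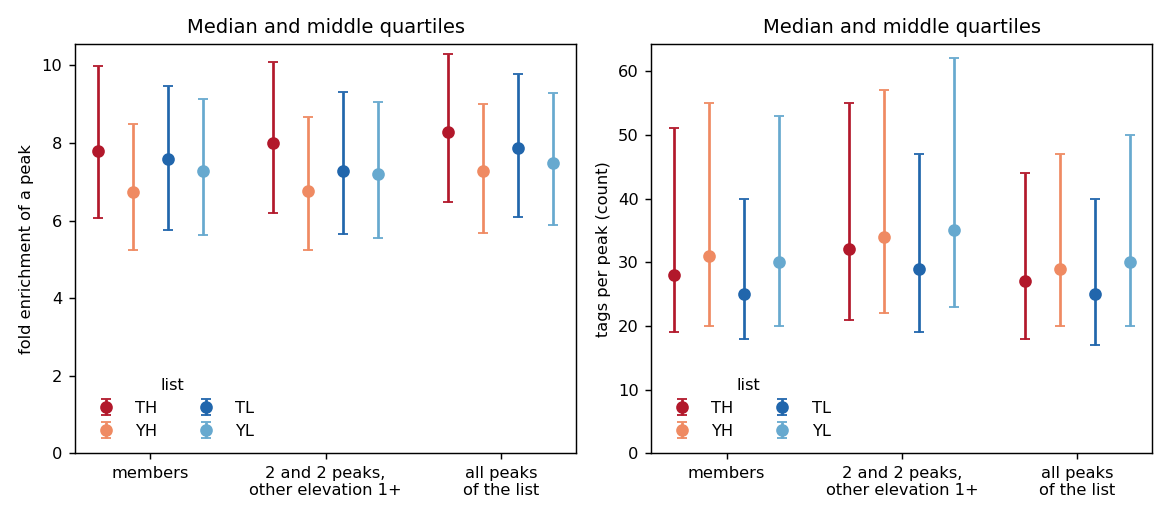
Fold enrichment (left, ratio) and tags per peak (right, count) in the 4 lists, for the peaks over the members, for peaks over windows with 2 peaks in each breed and at least 1 at the other elevation, and for all peaks of the list. Points are medians and lines run from the lower to the upper quartile, and the 3 sets overlap across most of that range in every list, as for TH with median fold enrichments of 7.80, 7.99 and 8.28.

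The breeds placed their peaks close together within the members and within the windows compared with them. Peaks of both breeds have to cover the same base in both sets, so this closeness is no trait of the members. At members with 2 peaks in each breed, the median distance between the mean summit of the TH and of the YH peaks was 59.5 bp (quartiles 21.5 to 340), and between those of the TL and YL peaks 62.8 bp (24 to 275). At windows with 2 peaks in each breed and at least 1 at the other elevation the medians were 63 and 69 bp. The middle base lay nearer to the edge of a peak at these members, at a median of 248 bp in the highland class against 309 bp at the other windows, and at 244 against 301 bp in the lowland class. The 2 sets are told apart by peaks of the other elevation over that same base, so this difference was not tested. The summit itself lay in the window for 37.9% of peaks at highland and 39.3% at lowland members, against 40.5% and 40.8%.

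The members had a peak of the other elevation close by more often than windows at large and less often than windows with a peak. The rule asks for 0 such peaks over the middle base, while windows with a peak include those with one there. Most windows at large have no peak at all. Both differences are thus bound to the rule, here and at larger distances, and were not tested. Over at least 1 of its 500 bases, 319 highland windows (33.4%, 95% Wilson interval 30.5% to 36.5%) had a lowland peak, and 361 lowland windows (32.7%, 30% to 35.5%) had a highland peak, where 13.7% and 13.3% of all windows, and 84.4% and 82.9% of windows with a peak, had one. In such touched members a peak of the other elevation stopped short of the middle base. The number of peaks over the window could differ too. Over any base it was TH 2, YH 4, TL 1 and YL 0 at chr3:88262501-88263000, and TH 4, YH 4, TL 3 and YL 3 at chr8:91205501-91206000. Within 2000 bp of the window, 65.0% of the highland class (61.9% to 68.0%) had a lowland peak and 58.2% of the lowland class (55.3% to 61.1%) a highland peak, where 37.4% and 36.5% of all windows, and 91.2% and 90.3% of windows with a peak, had one. The remaining 334 highland and 462 lowland windows, in 200 and 291 regions, had no peak of the other elevation within 2000 bp.

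The median distance to the nearest peak of the other elevation was 757 bp in the highland class and 1233 bp in the lowland class. It passed 10000 bp for 37 highland windows (3.88%) and 65 lowland windows (5.88%). The other 96.1% and 94.1% had such a peak within 10000 bp, as did 69.3% and 68.3% of all windows and 98.7% and 98.5% of windows with a peak. Both neighbouring groups contributed. A TL peak lay within 2000 bp of 51.2% of highland windows and a YL peak of 55.8%, and a TH peak lay within 2000 bp of 47.8% of lowland windows and a YH peak of 45.9%. Among windows with a peak these shares were 71.3% for TL, 81.1% for YL, 77.5% for TH and 74.0% for YH, in the same order within each class.

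**Figure D3:**
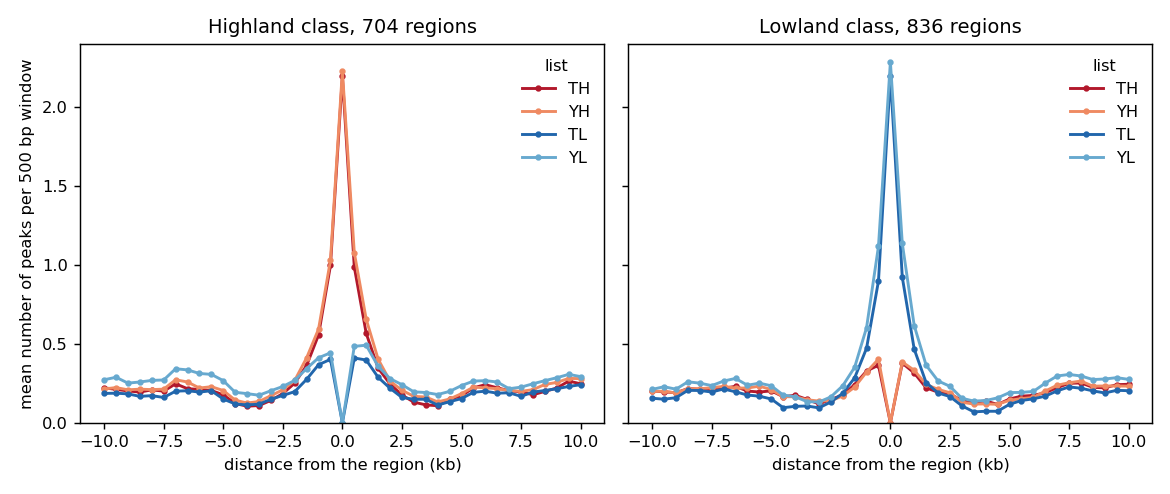
Mean number of peaks per 500 bp window in each list (vertical axis) against distance from the region in kb (horizontal axis, to 10 kb on both sides), for 704 highland regions on the left and 836 lowland regions on the right, where the value at 0 is that of the region itself. The lists of the class reach 2.19 (TH) and 2.23 (YH), or 2.20 (TL) and 2.29 (YL), while the other lists are at 0 there by the rule and come back in the adjoining window.

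Next to the regions the peaks of all 4 groups thinned out with distance, and further away they rose again. The mean of the lists over all windows was 0.158 peaks for YL, 0.135 for YH, 0.127 for TH and 0.112 for TL. At the highland regions the groups came down to about these means. After the lowland regions TL fell below its mean, to 0.0694 at 3500 bp, where TH had 0.130, YH 0.118 and YL 0.138. In the window just before a highland region TH had a mean of 0.997 peaks and YH 1.03, and TL had 0.402 and YL 0.443. In the window just before a lowland region TL had 0.898 and YL 1.12, and TH had 0.365 and YH 0.403. At 4000 bp before the highland regions the 4 means had come down to between 0.105 (TH) and 0.185 (YL), with 0.125 in YH and 0.114 in TL. At 7000 bp before them the means were higher again, with 0.342 in YL, 0.273 in YH, 0.247 in TH and 0.200 in TL, and at 10000 bp TH had 0.222 and YL 0.273.

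The members lay on every chromosome. The highland class had 0.389 windows per Mb of chromosomes 1 to 18, from 0.210 on chromosome 1 to 0.849 on chromosome 12, and the lowland class 0.451, from 0.288 on chromosome 13 to 0.786 on chromosome 12. Chromosome 12 thus had the highest density of windows in both, although counted by region the lowland class was densest on chromosome 18, at 0.555 regions per Mb against 0.550 on chromosome 12. Measured against the windows with 2 or more peaks in both groups of the elevation, the highland class took from 0.554% (chromosome 3) to 1.24% (chromosome 13), and the lowland class from 0.787% (chromosome 9) to 1.57% (chromosome 16).

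The balance of the classes varied among chromosomes. Lowland windows outnumbered highland windows on 11 of 18 chromosomes, with 95 against 43 on chromosome 3, 48 against 22 on chromosome 16 and 102 against 66 on chromosome 1. Highland windows were the more numerous on the other 7, such as chromosome 9 with 71 against 51. In the outer 10% of each chromosome at both ends lay 32.8% of highland windows (29.9% to 35.9%) and 27.5% of lowland windows (25% to 30.2%), where 34.4% of the other windows with 2 or more peaks in both groups lay there in either case. Of all windows with a peak 28.9% lay in these ends. Counted by region, so that touching windows count once, the shares were lower, at 29.8% for the highland class (26.6% to 33.3%) and 22.5% for the lowland class (19.8% to 25.4%). The place of the classes beside the share of all windows with a peak thus depended on whether windows or regions were counted, and no share by region was computed for the other windows.

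**Figure D4:**
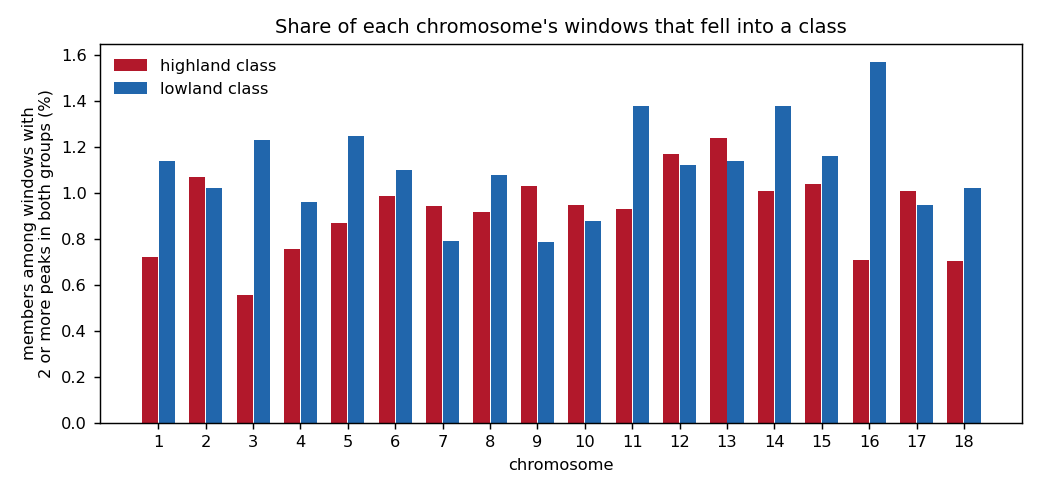
Members as a percentage of the windows with 2 or more peaks in both groups of the elevation (vertical axis), for chromosomes 1 to 18 (horizontal axis), with a highland and a lowland bar side by side. Highland bars run from 0.554% on chromosome 3 to 1.24% on chromosome 13, and lowland bars from 0.787% on chromosome 9 to 1.57% on chromosome 16.

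All positions are on Sscrofa10.2. Among the regions with the most peaks, some had peaks of the other elevation that touched the window but stopped short of its middle base, and the others had none over the window, at distances from 125 bp upward. At chr8:91205501-91206000 the counts were TH 4, YH 3, TL 0 and YL 0, a total of 7 that 6 highland windows reached, with fold enrichments from 12.42 to 13.09 in TH and from 10.09 to 13.44 in YH. Over any base of that window, however, the counts were TH 4, YH 4, TL 3 and YL 3, and the pattern of the class held for only 198 bp, so the highland peaks there reached further than the lowland ones. At chr13:156104001-156104500, with TH 3 and YH 4, TL 2 and YL 2 peaks touched the window and the pattern held for 308 bp.

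Of the 10 highland regions with the most peaks, 7 had a lowland peak over some base of the leading window, and the pattern held there for between 53 and 308 bp. The other 3 were clear of lowland peaks over the window. At chr14:151097001-151099000, a region of 2000 bp, there were TH 3, YH 4, TL 0 and YL 0 peaks, and the pattern held for 1867 bp with the nearest lowland peak 4395 bp away. Its peaks were broad and low, with fold enrichments of 4.22, 4.54 and 5.76 in TH and 3.58, 3.89, 4.21 and 4.56 in YH, on 57 to 63 tags in TH and 64 to 78 in YH. At chr3:63384001-63384500 there were TH 4 and YH 2 peaks, the pattern held for 665 bp, and the nearest lowland peak was 6034 bp away. Its peaks were short and high, with fold enrichments of 8.11, 8.60, 11.32 and 15.27 in TH and 9.0 and 13.09 in YH. At chr6:146036501-146037000, with 3 and 3 peaks, the pattern held for 905 bp, and a lowland peak began 231 bp from the window.

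In the lowland class 4 of the 10 regions with the most peaks were touched by a highland peak, among them chr14:92155501-92156000, where TL 4 and YL 3 peaks lay over the middle base but the pattern held for only 58 bp. The other 6 held it for between 537 and 1487 bp. At chr14:48942001-48943500 there were TL 3, YL 4, TH 0 and YH 0 peaks over the middle of the leading window, and the pattern of 2 or more in each breed held for 1401 bp, with the nearest highland peak 6494 bp away. Fold enrichments there were 6.06, 6.25 and 10.25 in TL and 6.14, 7.35, 7.61 and 8.71 in YL. At chr4:131731001-131732000 there were TL 4 and YL 3 peaks, with summits from 131731634 to 131731691, and the nearest highland peak was 3425 bp away. At chr15:55962501-55964000, with TL 3 and YL 4, the pattern held for 1487 bp and the nearest highland peak was 5874 bp away.

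**Figure D5:**
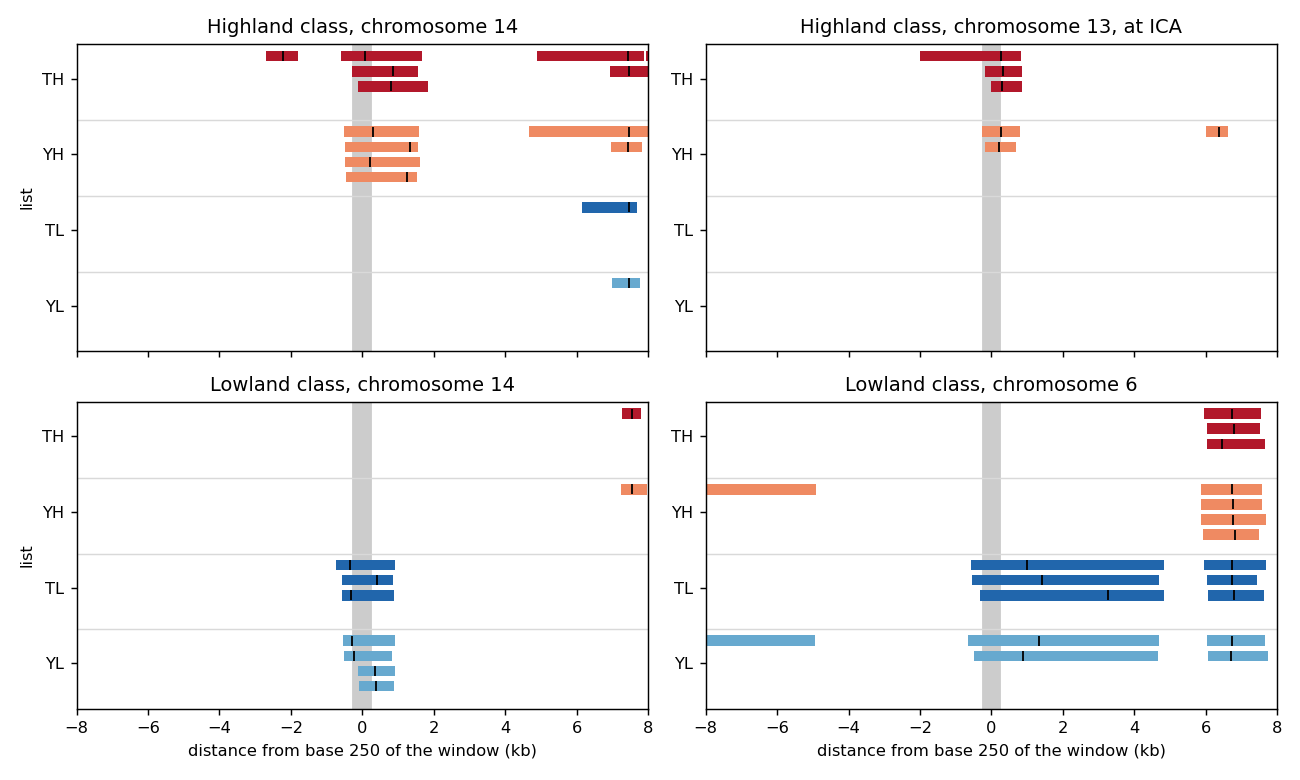
Peaks of the 4 lists (rows, 1 bar per peak, black tick at its summit) within 8 kb of base 250 of a member window (grey band), for chr14:151097001-151097500 and chr13:82337001-82337500 of the highland class above and chr14:48942501-48943000 and chr6:9244501-9245000 of the lowland class below, with distance in kb on the horizontal axis. The bars over the band are TH 3 and YH 4, TH 3 and YH 2, TL 3 and YL 4, and TL 3 and YL 2 in that order, with no bar of the other elevation on it, and bars that leave the range are cut off at its edge.

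The longest regions had low, wide peaks. The longest of all, the lowland region chr6:9244501-9249500, had TL 3 and YL 2 peaks that each ran for 5145 to 5399 bp, with fold enrichments of 3.08, 3.18 and 3.36 in TL and 2.79 and 3.08 in YL. Over this length they held 176 to 212 tags each in TL and 185 to 266 in YL, and the nearest highland peak was 1114 bp away. The longest highland region by its unbroken stretch, chr9:51379001-51381500, had 2 TH and 2 YH peaks with fold enrichments of 7.43, 5.74, 5.31 and 5.08, whose 4 summits lay between 51379930 and 51379959. In chr12:18448001-18450500, which was as long, the 2 TH peaks had 3.97 and 4.67 and the 2 YH peaks 3.79 and 4.07.

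The highest fold enrichment of a highland member, 24.07 in a TH peak at chr16:84809001-84809500, belonged to a window where 4 TL peaks and 1 YL peak touched other bases and the pattern held for 20 bp. The highest of a lowland member, 21.28 in a YL peak at chr2:159678001-159678500, belonged to one with 3 YH peaks over other bases, and the pattern held for 101 bp. The most tags in a highland peak, 321 in a TH peak of 7167 bp at chr12:6413501-6414000, likewise came with 3 TL peaks and 1 YL peak over other bases of the window. In these 3 cases the member window lay at the margin of its strongest peak, whose summit was outside the window. The lowland peak with the most tags, 444 in a YL peak of 7201 bp at chr6:155490001-155490500, also had its summit outside the window. No TH or YH peak touched that window and the pattern held for 689 bp, with the nearest highland peak 123 bp away.

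Regions far from any peak of the other elevation were picked out after their values were seen. With nothing from the lowland groups within 10000 bp, the most highland peaks were 6, at chr7:118817001-118818000 and at chr15:71493501-71494000 (TH 3 and YH 3 at both). The first, with the higher mean fold enrichment, had 3 TH peaks with fold enrichments of 9.03, 9.54 and 10.40 on 21 to 48 tags, and 3 YH peaks with 7.71, 9.23 and 11.26 on 25 to 27 tags, and the nearest lowland peak was 11977 bp away. In the lowland class the most were also 6, at chr16:29303501-29304500 and at chr1:238847501-238848500 (TL 2 and YL 4 at both). The latter, again the one with the higher mean fold enrichment, had 2 TL peaks of 9.32 and 10.12 and 4 YL peaks of 7.49, 7.74, 7.95 and 9.13, each on 14 to 21 tags, and no highland peak within 25934 bp. The largest distances of all were 54215 bp at the highland window chr11:70852501-70853000 (TH 2, YH 3) and 133436 bp at the lowland window chr1:66730001-66730500 (TL 2, YL 2).

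Gene symbols could be given to 7 of the 2059 members directly, those that were listed or lay within 5000 bp of a listed window in the part of the authors' list of differentially methylated windows used here, which was taken as annotation only and covers a few chromosomes. The highland region chr13:82337001-82338000 held a window listed at the promoter of ICA, the inhibitor of carbonic anhydrase, a pig protein of the transferrin family. Over both of its windows there were TH 3, YH 2, TL 0 and YL 0 peaks. The TH peaks had fold enrichments of 6.63, 7.61 and 9.03 on 23, 75 and 30 tags, and the YH peaks 6.56 and 8.03 on 25 and 20 tags. All 5 summits lay between 82337471 and 82337564, the pattern held for 861 bp, and the nearest lowland peak was 14071 bp from the first window. It was the named gene whose window stood clearest of the lowland groups. In the paper, ICA counts as differentially methylated in TH against TL and in both comparisons of the breeds, but not in YH against YL.

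The highland region chr10:21138501-21139500 lay 500 bp from a window listed in an intron of SMYD3, a lysine methyltransferase with a SET domain. It had 2 TH peaks with fold enrichments of 7.14 and 7.77 on 50 and 52 tags, and 3 YH peaks with 3.89, 5.47 and 6.93 on 40, 48 and 42 tags. The pattern held for 1127 bp, and the nearest lowland peak, from YL, was 1431 bp away.

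PARK2, which encodes the ubiquitin ligase parkin that marks damaged mitochondria for removal, had members of both classes near windows listed in its introns. At chr1:7717501-7718000 there were TH 2 and YH 2 peaks, with fold enrichments of 4.83, 4.96, 4.58 and 6.60, but 3 YL peaks touched the window and the pattern held for 25 bp. At chr1:8090001-8090500 there were TL 2 and YL 3 peaks, while TH 1 and YH 3 touched the window and it held for 12 bp. A lowland region at chr1:7825501-7826500, between other windows listed for PARK2, was clearer, with the nearest highland peak 4232 bp away. A highland window found in the same way between windows listed under the symbol LEP, chr1:293809001-293809500 (TH 2, YH 2), was touched by a lowland peak. The 3 windows of these places are not among the 7. ASB6, which encodes an ankyrin repeat protein with a SOCS box, had the lowland window chr1:303703501-303704000 at 500 bp from one listed at its promoter. There 2 TL peaks (4.05 and 5.43) and 2 YL peaks (5.12 and 6.06) lay over the middle base, TH 2 and YH 3 peaks touched the window, and the pattern held for 152 bp. Of the 4 genes with a member at or near a listed window, ICA and SMYD3 thus had windows free of the other elevation, and the window of ASB6 and the PARK2 windows near listed ones did not.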

How the data were processed

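The hearts of 16 pigs (TH, YH, TL and YL, 4 each) were profiled by MeDIP-seq. The authors trimmed reads with FASTX (version 0.0.13), used Bowtie (version 0.12.8) to map them to Sscrofa10.2 from Ensembl release 69, called peaks with MACS (version 1.4) and deposited 1 list per group. In the deposited lists, tags are a raw count of reads in each peak, and fold enrichment is a ratio to the background that the caller estimated. Peak ends were read from the field that joins start and end, since many TH peaks have no other, and were checked against the stated length of every peak.

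Peaks over base 250 of each 500 bp window were counted per list. Members and lists of regions and genes were chosen with earlier results of these data known. Because peaks carry no animal names and the members were chosen by these counts, no test was run. Wilson intervals (95%) cover counting error only, and neighbouring windows share peaks. Distances run from a window to the nearest base of a peak, and ends of chromosomes are the largest peak ends. Regions named were, per class, the 10 with the most peaks (ties by mean fold enrichment), the 3 longest, those with the highest fold enrichment and the most tags in a peak, and windows with a gene symbol in the used part of the authors' list, together with the closest groups of regions within 1 Mb. Regions far from the other elevation, pairs of the classes close together and windows between listed windows of 1 gene were chosen after seeing the data. The counting was tested on simulated data. Alternatives changed the base, the threshold, the margin, the peaks used and the joining of windows. Sequences and the gene annotation of Sscrofa10.2 were not used here, so gene lists were not counted. The software was Python 3.11.15 with pandas 2.3.3, NumPy 2.4.6, Matplotlib 3.10.9 and SciPy 1.17.1.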

Additional observations from a re-analysis of the deposited data

Results flagged for a closer look

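Sequences outside chromosomes 1 to 18 were not used above, and by the same counts they too held windows of both kinds, which are given here as counts with no test. On chromosome X, 26 windows met the highland rule and 8 the lowland rule, which is 0.123% and 0.0378% of its 21144 windows with a peak. On the 2418 unplaced scaffolds with such windows, 64 met the highland rule and 66 the lowland rule, 0.192% and 0.198% of 33321 windows with a peak. The percentages on chromosomes 1 to 18 were 0.154% and 0.178%.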

How the results depend on the processing

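The members depended on how the rule was drawn. In highland and lowland order, 582 and 654 windows met it when all bases had to lie under the same peak (29.7% and 28.7% of the members among them), and 522 and 646 when the other elevation had to be empty for 500 bp on each side. There were 46 and 56 at 3 or more peaks in each breed and 15600 and 17467 at 1 or more. Equal numbers of peaks by fold enrichment gave 715 lowland windows and a highland share of 62.5%, and peaks at or above the lower quartile of fold enrichment gave a share of 49.3%. Added after seeing the data, 0 peaks within 2000 bp gave 334 and 462 windows and a share of 42.0%, and strong peaks for the class with all peaks for the 0 gave 422 and 528. The highland count stayed within 1.5 times its value under 9 of 15 alternatives and the lowland count under 8, and the share lay under 50% in 14 of 15, where base 500 and a grid moved by 250 bp are by construction the same count. Similar counts did not mean the same windows: with base 1 in place of base 250, 48.6% of highland and 47.2% of lowland members were kept. No paired analysis was possible because peaks carry no animal names, and for the same reason no animal could be left out. The lists give no depth per animal, and a weak peak below the caller's threshold counts as 0.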

Other observations

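Within 10000 bp of each other there were 10 pairs of a highland and a lowland region, out of 704 and 836 regions. The closest pair was on chromosome 11, where the highland region chr11:24557001-24558500 (TH 3, YH 3) and the lowland region chr11:24560001-24562000 (TL 3, YL 2) were 1500 bp apart. The next, chr12:60739001-60739500 (TH 2, YH 4) and chr12:60741501-60742500 (TL 2, YL 2), were 2000 bp apart.

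Within 1 Mb at most 4 regions of a class were found. Places with 4 highland regions included chr9:150146001-150964000, chr11:83330501-83804000 and chr12:4173001-4709500, and places with 4 lowland regions included chr2:153967501-154810500, chr3:13561501-14398000 and chr11:73510001-74438500. None of these 6 places held a region of the other class.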
